A study of Rattus norvegicus with 48 samples.

Results

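Regulated secretion releases stored cargo, such as surfactant, mucin or granule proteins, when a cell is stimulated. Rab27 and Rab3 GTPases mark the storage vesicle. Effector proteins that bind the loaded GTPase carry and tether the vesicle to the plasma membrane, priming factors ready it, and SNARE proteins fuse both membranes. In the lung this route serves alveolar type 2 cells, secretory airway cells, and blood-derived cells such as mast cells, neutrophils, cytotoxic lymphocytes and platelets.

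Transcripts of 8 genes of this route, of 30045 in the count tables, were followed in rat lung: the GTPases Rab27a, Rab27b and Rab3d, the effectors Rph3al, Sytl1 and Sytl2, the priming factor Unc13d and the SNARE Vamp8. They were taken by symbol and were chosen by measured values: Rph3al was lower in oil vapor than in air 1 day after a single exposure, and the oil vapor effect on Rab27a differed between exposure schedules at 1 day. All values of the 8 genes in the oil vapor contrasts at 1 day are therefore given as a description, with no test.

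Male Sprague-Dawley rats breathed oil vapor at 300 ppm or filtered air in whole-body chambers for 6 h a day. The single schedule had 1 exposure day, and the repeated schedule ran 4 days per week for 4 weeks, which comes to 16 exposure days. Lungs were taken 1 or 28 days after exposure. The 8 groups were single oil vapor and single air at 1 day, single oil vapor and single air at 28 days, and the same 4 for the repeated schedule, with 6 animals and 6 RNA sequencing libraries each.

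The libraries held between 1.54 and 7.16 M (mega) counts each. Levels are given in CPM, counts scaled to a library total of 1 M, and all 8 genes were above the floor of 3 counts in all 48 libraries. Levels of different genes were not compared, since CPM is not corrected for transcript length. The alveolar type 2 markers Sftpc, Sftpb, Sftpa1, Lamp3, Abca3 and Napsa were present in all libraries and summed to between 5723 and 17177 CPM. Markers of heart muscle summed to between 3.98 and 636 CPM. In pieces of whole lung, fewer cells of a type and less RNA per cell cannot be told apart.

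The library of animal 43, in the repeated oil vapor group at 1 day, was the shallowest and stood apart. Its erythroid markers summed to 38604 CPM, against 762 to 3421 CPM in the other 5 animals of its group. Its platelet markers summed to 1980 CPM, against 50.3 to 130 CPM in the others. Its alveolar type 2 markers summed to 5723 CPM, against 8187 to 14271 CPM. The oil vapor minus air differences of Rab27b, Rph3al and Rab3d in the repeated schedule at 1 day are given with and without it. Libraries of the repeated and the single schedule, put side by side by the order of animal numbers within matching groups, also varied together: the erythroid gene Alas2 correlated at r = 0.97 over 24 such pairs, after group means were removed. Among the 8 genes this r was 0.71 for Rab27b (0.51 without the pair of animal 43), 0.59 for Vamp8 and 0.53 for Rph3al, whereas it lay between -0.03 and 0.28 for the other 5, with 0.06 for Rab27a. The cause was not tested, and p-values that compare the schedules assume that the libraries are independent.

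The 250 bases upstream of the annotated start are shown for Rab27a and Rph3al, whose values the choice rested on, and for Rab27b, the closest relative of Rab27a. They are the RefSeq sequences on assembly GRCr8, which is not the build of the counts, at chr8:82663123-82663372 (plus strand) for Rab27a, chr10:61300146-61300395 (minus strand) for Rph3al and chr18:65938584-65938833 (minus strand) for Rab27b. Each is written 5′ to 3′, and capitals mark a match on either strand to one of the motifs searched.
Rab27a: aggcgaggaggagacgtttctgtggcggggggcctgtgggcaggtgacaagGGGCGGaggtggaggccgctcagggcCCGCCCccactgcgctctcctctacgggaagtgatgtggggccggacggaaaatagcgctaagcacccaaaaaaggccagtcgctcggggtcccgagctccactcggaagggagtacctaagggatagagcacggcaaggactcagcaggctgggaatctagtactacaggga
Rph3al: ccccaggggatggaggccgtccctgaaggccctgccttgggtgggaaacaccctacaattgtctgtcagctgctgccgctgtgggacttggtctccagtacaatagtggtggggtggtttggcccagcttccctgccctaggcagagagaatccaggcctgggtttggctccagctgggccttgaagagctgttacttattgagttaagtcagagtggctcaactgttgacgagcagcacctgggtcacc
Rab27b: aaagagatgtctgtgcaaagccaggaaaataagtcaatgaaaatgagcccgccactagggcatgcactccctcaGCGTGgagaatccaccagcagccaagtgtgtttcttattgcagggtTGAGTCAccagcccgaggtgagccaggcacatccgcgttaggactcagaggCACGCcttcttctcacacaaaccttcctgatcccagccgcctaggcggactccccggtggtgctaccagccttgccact

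Matches were sought on both strands, with overlaps allowed. The E-box was spelled CACGTG, and the core of the M-box CATGTG. AP-1 was sought as TGANTCA and the CRE as TGACGTCA. The GC box was spelled GGGCGG, and CCAAT served as its own name. The core of the xenobiotic response element was GCGTG, and the TATA box was spelled TATAAA. The Rab27a window was 63.6% G and C and held 2 GC boxes, a motif found in 30.5% of 33469 such windows. The Rab27b window held 1 AP-1 match, found in 6.34% of windows, and 2 matches to GCGTG, found in 25.9%. The Rph3al window matched none of the 8 motifs. Shares of windows for the motifs not found in these 3 were 5.59% for CACGTG, 12.1% for CATGTG, 1.59% for TGACGTCA, 34.02% for CCAAT and 12.9% for TATAAA. Of the 8 genes, 7 matched a RefSeq window. A match is a description of the letters, not of a bound site.

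**Figure D1:**
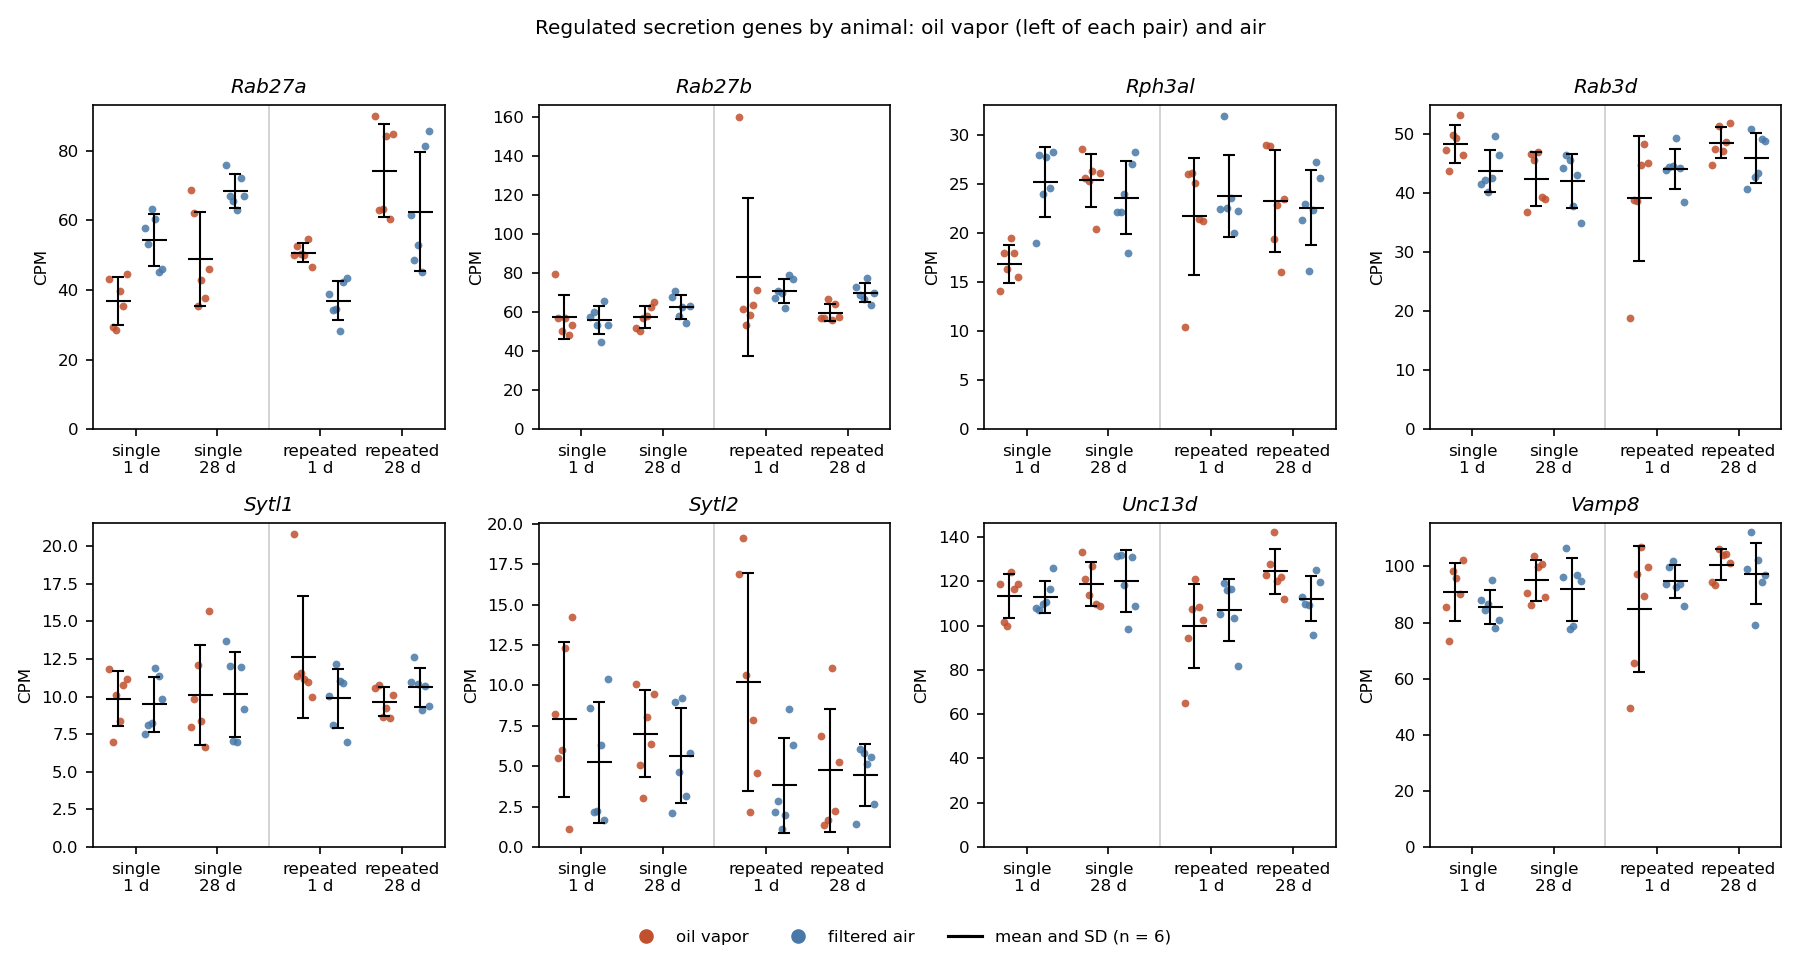
Level of the 8 genes in CPM (linear axes from 0) in each of the 48 animals, by schedule and day after exposure, with oil vapor left of air in each pair. Points are animals, and black marks are the mean and SD of 6 animals. Rab27a at 1 day lies lower in oil vapor after the single schedule and higher in oil vapor after the repeated schedule, and animal 43 is the point at 160 CPM for Rab27b.

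Rab27a, the GTPase that docks lysosome-related granules, was lower in oil vapor than in air 1 day after a single exposure and higher in oil vapor 1 day after repeated exposure. After the single exposure at 1 day its level had a lowest value of 28.3, a median of 37.6 and a highest value of 44.4 CPM in oil vapor, against 45.2, 55.5 and 63.2 CPM in air. After the repeated exposure at 1 day these values were 46.5, 50.2 and 54.7 CPM in oil vapor, against 28.3, 36.7 and 43.3 CPM in air. In neither schedule did the oil vapor and air animals overlap, and they stood in opposite order. The oil vapor minus air difference was -0.55 log2 (SE 0.15, 0.68-fold) after the single exposure and 0.53 log2 (SE 0.16, 1.45-fold) after the repeated exposure. The repeated minus single difference of these effects was 1.08 log2 (SE 0.22). Groups without overlap made up 0.58% of 14820 genes in the single and 0.786% of 15005 genes in the repeated schedule. The air groups differed too: air animals at 1 day averaged 36.9 ± 5.6 CPM in the repeated and 54.3 ± 7.5 CPM in the single schedule (SD, n = 6 each), in tables deposited separately.

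At 28 days, in animals the choice of genes did not use, Rab27a had the same signs with smaller or like differences, and no test passed. For Rab27a these tests share an estimate of spread with the 1-day groups, which the choice did use. After the single exposure its lowest, median and highest levels were 35.4, 44.4 and 68.7 CPM in oil vapor, against 62.9, 67.0 and 76.0 CPM in air. All but 1 of the oil vapor animals lay below every air animal, so the groups overlapped through that animal. The difference was -0.51 log2 (SE 0.14), with an adjusted p of 0.29 by edgeR (quasi-likelihood, Benjamini-Hochberg over all 14820 genes), where it ranked 70 by unadjusted p. With other settings and each animal left out in turn this difference lay between -0.63 and -0.43, and the adjusted p between 0.12 and 0.55. After the repeated exposure the levels were 60.3, 73.7 and 90.0 CPM in oil vapor, against 45.2, 57.2 and 85.6 CPM in air. These groups overlapped over most of their range, with a difference of 0.24 log2 (SE 0.15, adjusted p = 0.98 by edgeR). The repeated minus single difference of the oil vapor effects at 28 days was 0.74 log2 (SE 0.22). It ranked 15 of 15322 genes by unadjusted p and had an adjusted p of 0.92 by edgeR.

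Rab27a was higher at 28 days than at 1 day in each of the 4 arms, by values that share the 1-day animals used in the choice and so have no test. The days compare different animals, so time after exposure cannot be told apart from age or day of collection. The 28-day minus 1-day difference was 0.39 log2 (SE 0.15) in single oil vapor and 0.35 log2 (SE 0.14) in single air. It was 0.50 log2 (SE 0.15) in repeated oil vapor and 0.80 log2 (SE 0.16) in repeated air. Over the 8 groups its mean spanned 36.7 CPM in single oil vapor at 1 day to 74.3 CPM in repeated oil vapor at 28 days. The groups in between, from low to high, were repeated air at 1 day, single oil vapor at 28 days, repeated oil vapor at 1 day, single air at 1 day, repeated air at 28 days and single air at 28 days. No neighbours in that order lay further apart than the larger of their SDs.

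Rab27b, the isoform best known from platelets and secretory glands, averaged between 55.8 and 78.1 CPM over the groups, and its oil vapor and air animals overlapped in all 4 contrasts. In the repeated schedule at 1 day it had lowest, median and highest levels of 53.3, 62.7 and 160 CPM in oil vapor, against 62.2, 70.3 and 79.0 CPM in air. The value of 160 CPM is animal 43, and the groups overlapped. The difference was 0.24 log2 (SE 0.23) with that animal and -0.20 log2 without it. The group mean without it was 61.7 ± 6.6 CPM (SD, n = 5). In the single schedule at 1 day the levels were 48.5, 55.2 and 79.5 CPM in oil vapor, against 44.5, 55.7 and 65.9 CPM in air, a difference of 0.06 log2 (SE 0.11). With 1 animal left out this difference lay between -0.08 and 0.10 log2.

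At 28 days Rab27b was measured lower in oil vapor in both schedules, without passing the test. After the single exposure the mean was 57.4 ± 5.8 CPM with oil vapor against 62.8 ± 6.0 CPM with air (SD, n = 6 each; -0.16 log2, SE 0.11, adjusted p = 0.76 by edgeR). After the repeated exposure it was 59.8 ± 4.5 CPM with oil vapor against 69.9 ± 4.9 CPM with air (SD, n = 6 each; -0.24 log2, SE 0.23, adjusted p = 0.98 by edgeR). Of 6 repeated oil vapor animals, 4 lay below every air animal. That fit shares its estimate of spread with the 1-day groups, animal 43 included, and on the 12 libraries compared the difference was -0.25 log2 with an adjusted p of 0.085 by edgeR. Platelet markers differed between the same groups: the summed level of Pf4, Gp9, Ppbp, Itga2b, Gp1ba and Clec1b was 35.8 to 96.5 CPM in oil vapor and 104 to 359 CPM in air after the single exposure. It was 37.3 to 101 CPM in oil vapor and 91.5 to 264 CPM in air after the repeated exposure. Their part in the Rab27b values was not tested.

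Rab3d, a GTPase of secretory granules in exocrine and other secreting cells, averaged between 39.1 and 48.5 CPM over the groups. Its lowest group mean, in repeated oil vapor at 1 day, included 18.9 CPM in animal 43 and was 43.1 ± 4.3 CPM without it (SD, n = 5). The oil vapor minus air difference was 0.15 log2 (SE 0.07) in the single and -0.09 log2 (SE 0.09) in the repeated schedule at 1 day, the last at -0.03 log2 without animal 43. At 28 days it was -0.01 log2 (SE 0.08, adjusted p = 0.99) and 0.07 log2 (SE 0.09, adjusted p = 0.98), both by edgeR.

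**Figure D2:**
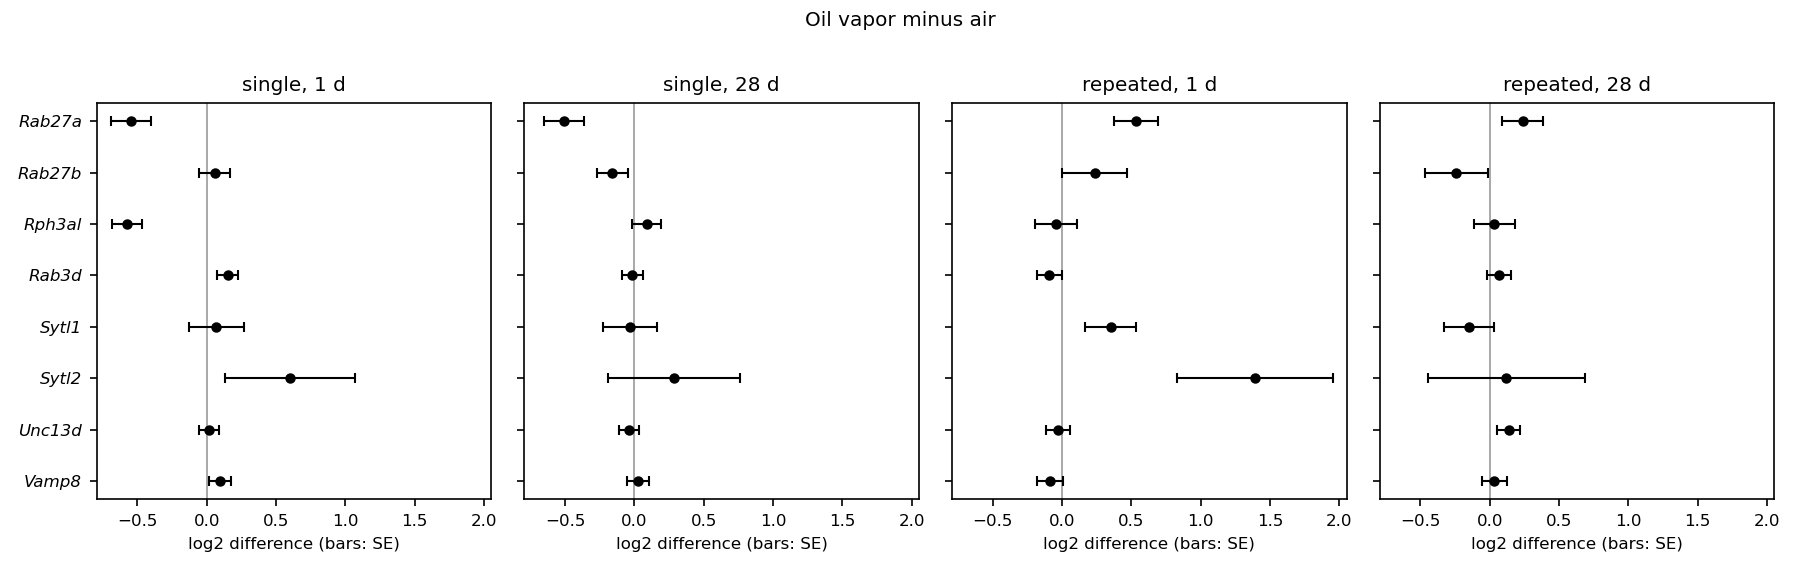
Oil vapor minus air difference of the 8 genes on the log2 scale, by schedule and day after exposure. Points are edgeR estimates and bars their standard errors, with 6 animals a group. At 1 day the Rab27a estimate is -0.55 in the single and 0.53 in the repeated schedule, the Rph3al estimate is -0.58 in the single and -0.04 in the repeated schedule, and the Sytl2 bars are the widest of the 8 genes.

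Rph3al (Noc2), a Rab3 and Rab27 effector studied mainly in endocrine and exocrine cells, was lower in oil vapor 1 day after a single exposure and within 0.09 log2 of its air level in the other 3 contrasts. After the single exposure at 1 day its lowest, median and highest levels were 14.1, 17.1 and 19.5 CPM in oil vapor, against 19.01, 26.2 and 28.2 CPM in air. Only the lowest air animal lay within the oil vapor range. The difference was -0.58 log2 (SE 0.11, 0.67-fold). In the same groups, markers of club and goblet cells summed to 1096 to 2242 CPM with a median of 1763 in oil vapor, against 2038 to 2981 CPM with a median of 2354 in air. Markers of ciliated cells summed to 48.5 to 100 CPM in oil vapor, against 85.3 to 124 CPM in air. Markers of liver summed to 47.6 to 359 CPM with a median of 152 in oil vapor, against 38.9 to 71.8 CPM with a median of 49.4 in air. The part of these sums in the Rph3al difference was not tested. Within groups, Rph3al and the club and goblet sum correlated at r = 0.45 (rho 0.37) over 48 libraries and at 0.28 without animal 43. Rph3al and the liver sum correlated at r = -0.44 (rho -0.48) over 48 libraries and at -0.29 without animal 43. Counting may also have mixed Rph3al with the lncRNA LOC102549294, which overlaps it in the RefSeq table and averaged 9.79 counts per library, since the strand setting of the counting is not given in the sources used here.

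In the repeated schedule at 1 day Rph3al had lowest, median and highest levels of 10.4, 23.3 and 26.2 CPM in oil vapor, against 20.0045, 22.6 and 31.98 CPM in air. The lowest value is animal 43, and the other oil vapor animals lay within the air range. The difference was -0.04 log2 (SE 0.15) with all animals, 0.01 log2 without animal 43 and 0.06 log2 without animal 36, the highest of the air group. At 28 days, the difference was 0.09 log2 (SE 0.11, adjusted p = 0.89) after the single and 0.03 log2 (SE 0.15, adjusted p = 1.00) after the repeated exposure, both by edgeR. Rph3al in single oil vapor averaged 25.4 ± 2.7 CPM at 28 days and 16.9 ± 1.9 CPM at 1 day (SD, n = 6 each), a difference of 0.58 log2 (SE 0.11). In the other 3 arms the 28-day minus 1-day difference lay between -0.09 and 0.04 log2. Single oil vapor at 1 day had the lowest of the 8 group means, but the next group, repeated oil vapor at 1 day with 21.7 ± 6.0 CPM (SD, n = 6), lay within its own SD of it. Without animal 43 that group averaged 23.996 ± 2.5 CPM (SD, n = 5).

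Sytl1 and Sytl2 encode synaptotagmin-like effectors that bind Rab27 and tether vesicles to membrane lipids. Sytl2 varied more between animals than any other of the 8 genes, from 1.12 to 19.1 CPM, a 17.1-fold range that rests on 6 to 102 counts per library. In the repeated schedule at 1 day its lowest, median and highest levels were 2.14, 9.28 and 19.1 CPM in oil vapor, against 1.12, 2.48 and 8.57 CPM in air. The oil vapor animals tended to the upper end, but the groups overlapped. The difference was 1.39 log2 (SE 0.56), against 0.60 log2 (SE 0.47) in the single schedule. At 28 days it was 0.29 log2 (SE 0.48, adjusted p = 0.93) after the single and 0.12 log2 (SE 0.57, adjusted p = 1.00) after the repeated exposure, both by edgeR. Sytl1 averaged 9.49 to 12.6 CPM over the groups. Its highest value of 20.8 CPM was again animal 43, and the repeated oil vapor group at 1 day averaged 11.0 ± 0.6 CPM without it (SD, n = 5). The Sytl1 difference at 1 day was 0.07 log2 (SE 0.20) in the single and 0.35 log2 (SE 0.19) in the repeated schedule. With 1 animal left out the latter lay between 0.15 and 0.42 log2. At 28 days the Sytl1 difference was -0.03 log2 (SE 0.20, adjusted p = 0.99) and -0.15 log2 (SE 0.18, adjusted p = 0.98), both by edgeR.

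Unc13d (Munc13-4), which primes granules in cytotoxic lymphocytes, mast cells and platelets, averaged 99.8 to 124 CPM over the groups. Vamp8 (endobrevin), a vesicle SNARE of granule fusion in platelets, mast cells and exocrine cells, averaged 84.8 to 101 CPM. In the oil vapor contrasts at 1 day both stayed between -0.09 and 0.10 log2. At 28 days Unc13d differed by -0.04 log2 (SE 0.07, adjusted p = 0.94) after the single and by 0.14 log2 (SE 0.08, adjusted p = 0.98) after the repeated exposure. Vamp8 differed by 0.02 log2 (SE 0.08, adjusted p = 0.98) and 0.03 log2 (SE 0.09, adjusted p = 0.99), all by edgeR. A lncRNA, LOC134486592, overlaps Vamp8 in the RefSeq table and is not a row of the count tables.

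The 3 contrasts at 28 days compare animals that the choice of genes did not use. Their fits share an estimate of spread with the 1-day groups, which the choice did use. In these contrasts edgeR called 0 of the 8 genes, and the share of all genes called was 0% in each. At an unadjusted p below 0.05 the single-exposure contrast held 1 of the 8, Rab27a, beside 8.21% of all genes. The repeated-exposure contrast held 0 of the 8, beside 4.86% of all genes. The schedule difference held 1, again Rab27a, beside 5.2% of all genes. None of the 8 was called by DESeq2 or limma-voom in these contrasts. In both oil vapor contrasts at 28 days all 8 genes had overlapping groups, while 0.87% of genes after the single and 0.9% after the repeated exposure had none.

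**Figure D3:**
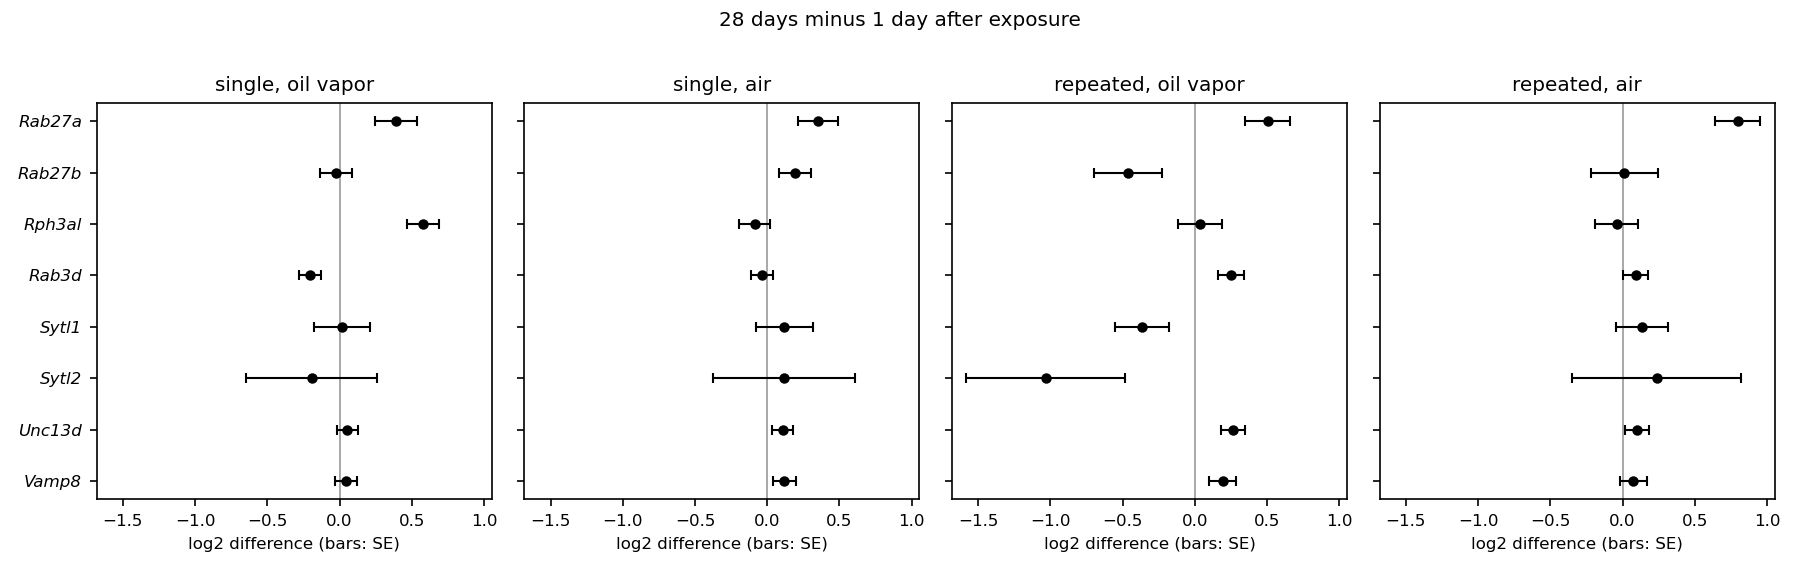
Difference between 28 days and 1 day after exposure for the 8 genes on the log2 scale, by schedule, in oil vapor left of air. Points are edgeR estimates and bars their standard errors, with 6 animals a group. Rab27a lies above 0 in all 4 arms, between 0.35 and 0.80, and Rph3al stands off 0 in single oil vapor, at 0.58.

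Between 28 days and 1 day, the 6 genes other than Rab27a and Rph3al were tested in each arm, and edgeR called 0 of the 6 in all 4. The share of all genes called was 9.43% in single oil vapor, 3.25% in single air, 0.34% in repeated oil vapor and 0.327% in repeated air. In single oil vapor Rab3d averaged 42.4 ± 4.5 CPM at 28 days and 48.3 ± 3.3 CPM at 1 day (SD, n = 6 each; -0.20 log2, SE 0.07, adjusted p = 0.085 by edgeR). Limma-voom with sample weights gave this difference as -0.22 log2 with an adjusted p of 0.045, where it called 11% of all genes. At an unadjusted p below 0.05, single oil vapor held Rab3d alone and repeated oil vapor held Rab3d, Unc13d and Vamp8, whereas the air arms held 0. Without animal 43 repeated oil vapor held Rab3d (0.18 log2, against 0.25 with it) and Unc13d (0.23 log2) but not Vamp8 (0.14 log2, against 0.19 with it). Without animal 44 the Vamp8 difference was 0.12 log2. Of all genes, 24.4% in single oil vapor, 15.5% in single air, 15% in repeated oil vapor and 10.7% in repeated air had such a p. In repeated oil vapor Unc13d averaged 124 ± 10.2 CPM at 28 days and 99.8 ± 19.1 CPM at 1 day (SD, n = 6 each; 0.27 log2, SE 0.08, adjusted p = 0.13 by edgeR). Its lowest 1-day value, 65.1 CPM, was animal 43. The Rab27b difference in that arm was -0.46 log2 (SE 0.23, adjusted p = 0.36 by edgeR) with animal 43 and -0.03 log2 without it.

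The rest of the secretion route was followed in 6 lists of 73 genes, of which 71 were in the tables and 61 or 62 passed the filter on low counts. They comprised other Rab27 and Rab3 relatives, Rab27 effectors and tethers, SNAREs and their partners, priming factors and calcium sensors, regulators of the Rab cycle, and the exocyst, which tethers vesicles. In the 4 oil vapor contrasts and both schedule differences edgeR, DESeq2 and limma-voom each called 0 of them in either direction. The share of all genes called by edgeR was 0% in 4 of these contrasts, 0.00666% in the repeated schedule at 1 day and 0.0457% in the schedule difference at 1 day. At an unadjusted p below 0.05 edgeR held 4 of 61 after the single exposure at 1 day, beside 10.1% of all genes, and 5 of 61 at 28 days, beside 8.21%. After the repeated exposure it held 5 of 62 at 1 day, beside 9.29% of all genes, and 1 of 62 at 28 days, beside 4.86%. The schedule difference held 7 of 62 at 1 day, beside 9.74% of all genes, and 1 of 62 at 28 days, beside 5.2%. The median of the lists in the oil vapor contrasts lay between 0.00 and 0.01 log2, and that of all genes between 0.01 and 0.02 log2.

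Of the 6 lists, 3 held genes that differed between 28 days and 1 day after the single exposure. Rose and fell here compare different animals, so time cannot be told apart from age or day of collection. In single oil vapor 4 genes rose and 2 fell, of 61 tested, while 4.45% of all genes rose and 4.98% fell. Calls in either direction were near the share of all genes in both arms. They were 6 of 61 in single oil vapor, beside 9.43%, and 2 of 61 in single air, beside 3.25%. Exph5 (Slac2-b), a Rab27 effector, averaged 237 ± 20.4 CPM at 28 days and 183 ± 17.2 CPM at 1 day (SD, n = 6 each; 0.36 log2, SE 0.07, adjusted p = 7.9e-04 by edgeR). Myo5b, a motor that carries vesicles along actin, rose by 0.26 log2 (SE 0.05, adjusted p = 9.96e-04 by edgeR). Myrip, which links Rab27a to myosin, rose by 0.42 log2 (SE 0.12, adjusted p = 0.027 by edgeR). Rab3a, the neuronal and endocrine vesicle GTPase, averaged 22.1 ± 6.2 CPM at 28 days and 11.5 ± 2.7 CPM at 1 day (SD, n = 6 each; 0.90 log2, SE 0.20, adjusted p = 0.0046 by edgeR). The 2 that fell regulate the Rab cycle: the exchange factor Rab3il1, by -0.38 log2 (SE 0.12, adjusted p = 0.040), and Gdi2, which holds Rabs in the cytosol, by -0.14 log2 (SE 0.04, adjusted p = 0.047), both by edgeR. Over 18 other settings, each animal left out included, Exph5, Myo5b and Rab3a passed in all 18. Myrip missed the threshold in 5 of them, among these without animal 6, 24 or 29 (adjusted p up to 0.077). Rab3il1 missed it in 12, with an adjusted p up to 0.092, and Gdi2 in 14, with one up to 0.25.

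In single air 2 of 61 genes rose between 28 days and 1 day and 0 fell, while 1.01% of all genes rose and 2.24% fell. Exph5 averaged 230 ± 13.9 CPM at 28 days and 197 ± 12.3 CPM at 1 day (SD, n = 6 each; 0.24 log2, SE 0.07, adjusted p = 0.042 by edgeR). Sytl3, a relative of Sytl1 and Sytl2, averaged 6.54 ± 1.02 CPM at 28 days and 4.09 ± 0.54 CPM at 1 day (SD, n = 6 each; 0.70 log2, SE 0.15, adjusted p = 0.0060 by edgeR). Sytl3 passed in all 18 other settings, and Exph5 missed the threshold in 7 of them, each without 1 of animals 4, 9, 10, 19, 20, 22 and 23 (adjusted p up to 0.11). Over all 6 lists, 34 of 61 genes in single oil vapor and 36 of 61 in single air had higher values at 28 days, while 50.5% of all genes in oil vapor and 49.2% in air had lower ones. By list, the Rab27 effectors and tethers had higher values in 9 of 10 genes in oil vapor and 8 of 10 in air, and priming and calcium sensing in 2 of 11 in oil vapor and 6 of 11 in air. The median of the effectors and tethers was 0.35 log2 in oil vapor and 0.18 log2 in air, beside -0.0018 log2 in oil vapor and 0.0030 log2 in air over all genes. Medians of the other lists lay between -0.22 and 0.06 log2 in oil vapor and between -0.06 and 0.02 log2 in air. After the repeated exposure the effectors and tethers had higher values in 6 of 10 genes in oil vapor and 8 of 10 in air. Of all genes, 52.4% in oil vapor and 50.5% in air had lower values there. The medians of the effectors and tethers were 0.08 log2 in oil vapor and 0.11 log2 in air. Over all genes they were -0.011 log2 in oil vapor and -0.0019 log2 in air. In the repeated schedule edgeR called 0 of 62 genes in either arm, with 8 in oil vapor, beside 15% of all genes, and 9 in air, beside 10.7%, at an unadjusted p below 0.05. DESeq2 and limma-voom each called 2 in repeated oil vapor, Exph5 and Myo5b, and 0 in repeated air. In repeated oil vapor DESeq2 called 2.11% and limma-voom 1.55% of all genes. Without animal 43 edgeR called Myo5b in repeated oil vapor (0.24 log2, adjusted p = 0.040), beside 1.03% of all genes.

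Correlations between the 8 genes within groups rested largely on animal 43. After removal of group means, Pearson's r between 2 of the genes lay between -0.68 and 0.71 over 48 libraries, and 8 of 28 pairs reached 0.5 in size. Without animal 43, r lay between -0.41 and 0.497 and 0 pairs reached 0.5. The pair with the highest value was Rab3d and Unc13d, at r = 0.71 with it and 0.50 without it. The lowest was Rab27b and Rph3al, at -0.68 with it and -0.41 without it. For Rab27a, r with the other 7 genes lay between -0.10 and 0.27 over 48 libraries. These are descriptions across libraries that share depth and tissue makeup.

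**Figure D4:**
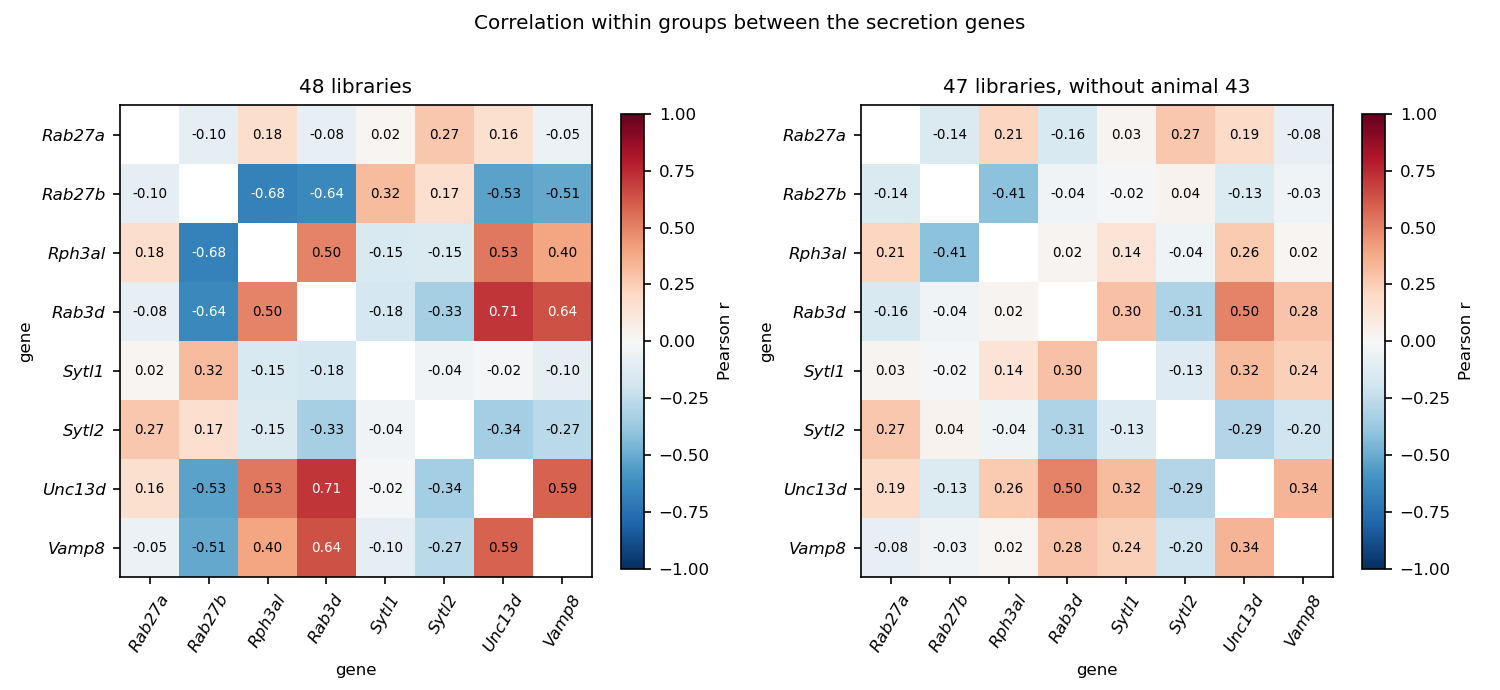
Pearson's r between the 8 genes over log2(CPM + 0.5) after removal of group means, with all 48 libraries on the left and without animal 43 on the right. Colour and printed values give r from -1 to 1. On the left 8 pairs stand at 0.5 or more in size, and all are weaker on the right. The highest value there is Rab3d and Unc13d at 0.497, just below 0.5.

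Marker sums of cell types tracked 3 of the genes at 0.5 or more in size without animal 43. Rab27b and the platelet sum correlated at r = 0.84 (rho 0.64) over 48 libraries, at 0.68 without animal 43 and at 0.64 without the 2 libraries farthest from the median. Vamp8 and the alveolar type 2 sum correlated at r = 0.78 (rho 0.57), and at 0.60 without animal 43. Unc13d and the alveolar type 1 sum correlated at r = 0.75 (rho 0.57), and at 0.58 without animal 43. The r of Rab27a with the 11 marker sums lay between -0.17 and 0.18 over 48 libraries, and between -0.17 and 0.24 without animal 43. These values were looked at after the levels were known.

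The gene most like Rab27a within groups, among 15553 with a mean of at least 1 CPM, was Rps16, a protein of the small ribosomal subunit. Its r with Rab27a was 0.81 (rho 0.86) over 48 libraries, 0.89 without animal 43 and 0.79 without the 2 farthest libraries. The next were Scamp3, a membrane protein of recycling vesicles, at 0.76, Myl12b, a myosin light chain, at 0.75, LOC100910973 at 0.74, and Serping1, the C1 inhibitor of the complement system, at 0.71. The other 69 ribosomal protein genes correlated with Rab27a at a median r of -0.10, between -0.41 and 0.42. Ribosomal protein genes have near-identical copies elsewhere in the genome, so counts of Rps16 are uncertain.

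Rps16 had the order of Rab27a at 1 day. In the single schedule its mean was 48.9 ± 24.6 CPM with oil vapor against 124 ± 46.8 CPM with air (SD, n = 6 each; -1.32 log2, SE 0.34). In the repeated schedule the mean was 78.7 ± 60.6 CPM with oil vapor against 38.6 ± 10.6 CPM with air (SD, n = 6 each; 1.14 log2, SE 0.44). Without animal 43, at 202 CPM the highest of its group, the oil vapor mean was 54.1 ± 7.6 CPM (SD, n = 5) and the difference 0.50 log2. At 28 days after the single exposure it was 60.2 ± 38.2 CPM with oil vapor against 141 ± 34.5 CPM with air (SD, n = 6 each; -1.24 log2, SE 0.34). After the repeated exposure at 28 days the Rps16 difference was 0.23 log2 (SE 0.41). Scamp3, Myl12b, LOC100910973 and Serping1 also had the signs of Rab27a at 1 day. Their differences, in that order, were -0.55, -0.67, -0.33 and -0.66 log2 after the single exposure. They were 0.39, 0.63, 0.43 and 0.41 log2 after the repeated exposure. These signs were the same at 28 days. The part of Rps16 and these genes in the Rab27a values was not tested.

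**Figure D5:**
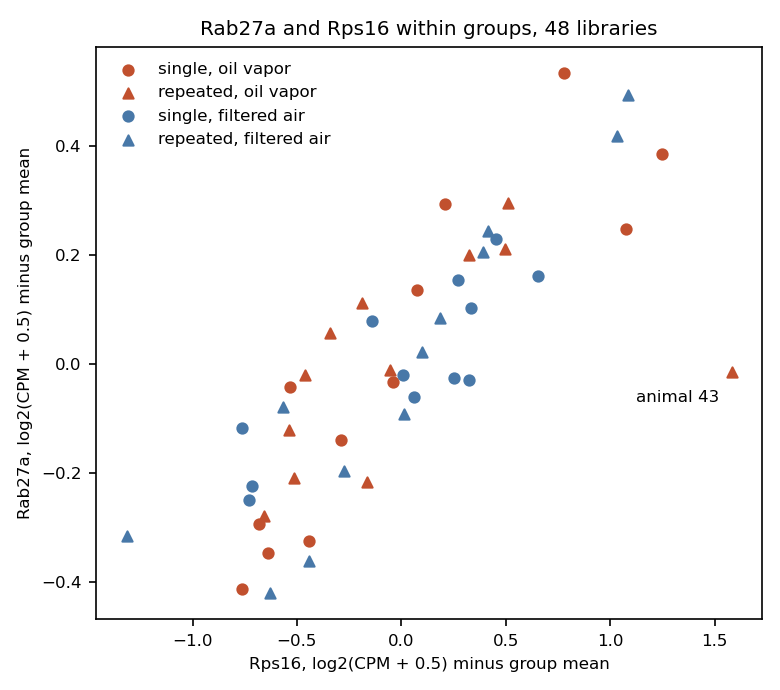
Rab27a against Rps16 in 48 libraries, each as log2(CPM + 0.5) minus the mean of its group. Colours are oil vapor and air, and shapes the schedules. The points run along a rising line with r = 0.81, and animal 43 lies off it to the right.

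The 5 genes most like Rph3al within groups were Cic at r = 0.79, Tnrc18 at 0.77, Caskin2 at 0.77, Adcy6 at 0.76 and Zfp703 at 0.76, over 48 libraries. Without animal 43 these values were between 0.58 and 0.65, with Cic, a transcriptional repressor, at 0.65. At 1 day after the single exposure the mean of Cic was 107 ± 9.6 CPM with oil vapor against 111 ± 12.6 CPM with air (SD, n = 6 each; -0.05 log2, SE 0.10).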

How the data were processed

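Per the labels' protocols, lung pieces gave total RNA for stranded TruSeq libraries, depleted of ribosomal RNA and amplified by 12 PCR cycles. The submitters' processing notes name HISAT2 2.1.0, HTSeq 0.6.1, SAMtools 1.8, Trimmomatic 0.35 and bcl2fastq 2.19, and build Rnor_6.0. The annotation and strand setting are not given in the sources used here. The authors deposited a table of raw counts by gene symbol for each schedule, with 24 libraries each. Of the 30045 genes, 5463 were at 0 in all libraries. For animal 32 the description names the other schedule's table, but its title and its column give the single exposure, and these were followed.

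From these counts, CPM was computed as the count divided by the library total. Each contrast within a schedule was fitted on the 24 libraries of that schedule in edgeR 4.0.16 (R 4.3.3) with TMM normalization, filterByExpr and a group-means model. Tests were two-sided quasi-likelihood tests with Benjamini-Hochberg adjustment over all genes tested and a threshold of 0.05. Schedule differences were fitted on all 48 libraries. The standard error (SE) of a log2 value was derived from the F of that test. Replicates are the animals named in the labels. The script was tested on simulated data. Floors of 3 counts, 0.419 to 1.95 CPM, cover counting error only, since PCR reads carry no molecular identifiers.

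The 8 genes, the gene lists and the marker lists were chosen with earlier results of these data known. Named genes were all 8, the genes of each secretion list past the threshold, up to 4 a contrast, and the 5 genes with the highest within-group r of log2(CPM + 0.5) to Rab27a and to Rph3al. The list genes with the smallest p that did not pass are kept as values and not named. Other settings were RLE size factors, no filter, DESeq2 1.42.0, limma-voom 3.58.1 with sample weights, the 12 libraries compared, all 48 libraries and each animal left out. Leaving out animal 43 or the 2 farthest libraries from marker sums, likeness and library pairs, and each animal from the Rps16 differences, was chosen after the data were seen.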

Additional observations from a re-analysis of the deposited data

Results flagged for a closer look

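Each of the 8 genes was looked at in each of the 8 groups for an animal that stood apart, by the gap to its nearest neighbour over the whole range of 6 animals, against Dixon's 95% critical value. Of 64 such groups 6 held one, and chance alone marks about 1 group in 20. Animal 43 of the repeated oil vapor group at 1 day accounted for 4 of the 6. Its Rab27b level was 160 CPM, against 53.3 to 71.2 CPM in the other 5. Its Sytl1 level was 20.8 CPM, against 9.96 to 11.5 CPM. Its Rph3al level was 10.4 CPM, against 21.2 to 26.2 CPM, and its Rab3d level was 18.9 CPM, against 38.6 to 48.3 CPM. In the same library the neutrophil markers summed to 723 CPM, against 104 to 187 CPM in the other 5, and the mast cell markers to 176 CPM, against 333 to 404 CPM. The mast cell sum rests mainly on Kit, which averaged 346 CPM over the 48 libraries. Cpa3, Fcer1a, Ms4a2, Tpsb2 and Hdc each averaged between 1.52 and 11.6 CPM, so the sum says little of mast cells. The part of these marker sums in the levels above was not tested.

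Animal 5 of the single oil vapor group at 1 day had 79.5 CPM of Rab27b, against 48.5 to 57.1 CPM in the other 5. Its platelet markers summed to 602 CPM and its erythroid markers to 12152 CPM, the highest sums outside animal 43 in the 48 libraries. Their part in its Rab27b level was not tested. Animal 36 of the repeated air group at 1 day had 31.98 CPM of Rph3al, against 20.0045 to 23.5 CPM in the other 5.

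For Rab27a at 1 day every oil vapor animal of the single schedule lay below the air mean and every oil vapor animal of the repeated schedule above it, with a repeated minus single difference of 1.08 log2. This difference was not tested, since the choice of genes used it.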

How the results depend on the processing

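No paired analysis was possible because animal numbers are not shared between groups, and the labels pair no animals across the schedules. None of the 48 tested results of the 8 genes was called in the main fit, so 0 lost a call by necessity. Refits of these 48 results under the other settings gave 944 values that are not independent, and 885 of them kept their direction and stayed uncalled. A call was gained in 1 (Rab3d between 28 days and 1 day in single oil vapor, by limma-voom), and 58 changed sign, none of them called. Counts of genes called, in place of 0 after the single exposure at 1 day, were 19 by DESeq2 and 1 by limma-voom, and 0 to 3 with 1 animal left out. In place of 0 at 28 days they were 24 by DESeq2, 16 with the 12 libraries compared and 0 to 9 with 1 animal left out. After the repeated exposure at 1 day, in place of 1, they were 0 without filter, with the 12 libraries and with all 48 libraries, 90 by DESeq2, 93 by limma-voom and 0 to 32 with 1 animal left out, the highest without animal 43. In place of 0 at 28 days they were 21 by DESeq2 and 137 with the 12 libraries. Between 28 days and 1 day in repeated oil vapor, in place of 51, they were 23 without filter, 311 by DESeq2, 232 by limma-voom, 0 with the 12 libraries, 430 with all 48 and 4 to 156 with 1 animal left out. In repeated air, in place of 49, they were 191 by DESeq2, 244 by limma-voom, 123 with the 12 libraries, 131 with all 48 and 2 to 60 with 1 animal left out. In single air, in place of 481, they were 315 to 516 with 1 animal left out. The schedule difference had, in place of 7 at 1 day, 61 by DESeq2, 34 by limma-voom and 0 to 25 with 1 animal left out, and, in place of 0 at 28 days, 2 by limma-voom. The sign changed by limma-voom for Sytl2 in the repeated schedule at 28 days (-0.012 log2) and, between 28 days and 1 day in single oil vapor, for Rab27b (0.060) and Sytl2 (0.27). With 1 animal left out, the log2 values of some tested results crossed 0. At 28 days after the single exposure they were Rab3d (-0.053 to 0.023), Sytl1 (-0.20 to 0.079) and Vamp8 (-0.023 to 0.063). After the repeated exposure they were Rph3al (-0.048 to 0.12), Sytl2 (-0.31 to 0.30) and Vamp8 (-0.021 to 0.071). Between 28 days and 1 day they were Rab27b (-0.068 to 0.11), Sytl1 (-0.15 to 0.098), Sytl2 (-0.44 to 0.084) and Vamp8 (-0.0042 to 0.079) in single oil vapor, Rab3d (-0.060 to 0.0036) and Sytl2 (-0.078 to 0.44) in single air, and Rab27b (-0.023 to 0.047) in repeated air. For the schedule difference at 28 days they were Rph3al (-0.14 to 0.031), Sytl1 (-0.24 to 0.044), Sytl2 (-0.59 to 0.023) and Vamp8 (-0.050 to 0.045). Without animal 43 the r between pairs of genes that left the 95% interval of the r over 48 libraries was -0.41 for Rab27b and Rph3al, -0.037 for Rab27b and Rab3d, -0.019 for Rab27b and Sytl1, -0.13 for Rab27b and Unc13d, -0.032 for Rab27b and Vamp8, 0.024 for Rph3al and Rab3d, and 0.022 for Rph3al and Vamp8. It was 0.30 for Rab3d and Sytl1, 0.50 for Rab3d and Unc13d, 0.28 for Rab3d and Vamp8, 0.32 for Sytl1 and Unc13d, 0.24 for Sytl1 and Vamp8, and 0.34 for Unc13d and Vamp8. Within that interval, it was 0.26 in place of 0.53 for Rph3al and Unc13d, and 0.14 in place of -0.15 for Rph3al and Sytl1. The cause was not tested. Libraries of 1.54 to 7.16 M counts limit most of all Sytl2, with 6 counts in its lowest library.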
